A study of Mus musculus with 13 samples.

Results

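The 10 genes described here encode receptors for the cytokines and growth factors that guide myeloid cells. They are the receptors for M-CSF (Csf1r), GM-CSF (the ligand-binding chain Csf2ra and the signalling chain Csf2rb), G-CSF (Csf3r) and FLT3 ligand (Flt3), those for IL-4, IL-6 and IL-10 (Il4ra, Il6ra and Il10ra), the TNF receptor Tnfrsf1a and the interferon gamma receptor chain Ifngr1. They were chosen by name, not by their values, and all 10 were found in each data set: among 23337 genes counted in EKLF+/+ and EKLF-/- cells, among 35427 genes of the EKLF/GFP libraries and among 54227 genes of the single cells. The source of all RNA was F4/80+ fetal liver cells of E13.5 mouse embryos, labelled as strain C57BL/6, while the study's resource list gives 129S4/SvJae for the EKLF-null line. The bulk libraries form 4 groups of 3, namely wild type EKLF+/+, EKLF-/- null, and wild type pEKLF-GFP cells sorted as EKLF/GFP+ or EKLF/GFP-. In pEKLF-GFP mice the EKLF promoter drives GFP, so the sort follows promoter activity and not EKLF protein. A single-cell library was made from 1 wild type sample, pooled from littermate embryos and selected with F4/80 beads. A different extraction kit was used for EKLF/GFP+ than for EKLF/GFP- RNA, so the kit and the sorted population cannot be told apart. The paper reports lower RNA integrity for EKLF/GFP+ than for EKLF+/+ and EKLF-/- samples, and gives none for EKLF/GFP-. The part of RNA integrity in the EKLF/GFP differences and transcript shares was not tested. Nothing in the labels says whether the 3 libraries of a group came from separate embryos, and p-values measure the spread between these libraries.

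Csf1r and Flt3 are receptor tyrosine kinases that dimerize when their ligands bind. Csf3r and the chains of the GM-CSF, IL-4, IL-6, IL-10 and interferon gamma receptors lack a kinase of their own and signal through JAK kinases and STAT factors, whereas Tnfrsf1a recruits adaptors with death domains. Csf1r supports the survival of most tissue macrophages, Csf3r drives the formation of neutrophils, and Flt3 marks early progenitors and dendritic cell precursors. Fetal liver macrophages sit at the center of erythroblastic islands, where they feed developing erythroblasts and engulf their expelled nuclei. EKLF (Klf1) is the transcription factor that activates much of the red cell program.

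The 7 receptor promoters searched, from the RefSeq table (GRCm38.p6), span 250 bases before and 50 after the start site. Csf1r, Csf2rb and Il10ra had no entry. The promoters were searched on both strands for CCNCNCCC, a CACCC-type motif of the kind that EKLF binds, and for GAGGAA, a core of the kind bound by the myeloid factor PU.1. Shown are those of the receptors with the largest (Flt3 and Csf3r) and the smallest (Ifngr1) difference in the EKLF/GFP comparison, with matches to either motif in capitals. Flt3 lies at chr5:147400440-147400739 on the minus strand, Csf3r at chr4:126024409-126024708 on the plus strand and Ifngr1 at chr10:19591699-19591998 on the plus strand, and each is written 5′ to 3′ along its gene.
Flt3: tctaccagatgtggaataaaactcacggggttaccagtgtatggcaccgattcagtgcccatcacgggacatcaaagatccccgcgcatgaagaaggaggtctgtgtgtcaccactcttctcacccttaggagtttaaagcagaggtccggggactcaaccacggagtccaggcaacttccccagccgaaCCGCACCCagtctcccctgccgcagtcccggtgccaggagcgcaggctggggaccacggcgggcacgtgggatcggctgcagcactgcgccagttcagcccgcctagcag
Csf3r: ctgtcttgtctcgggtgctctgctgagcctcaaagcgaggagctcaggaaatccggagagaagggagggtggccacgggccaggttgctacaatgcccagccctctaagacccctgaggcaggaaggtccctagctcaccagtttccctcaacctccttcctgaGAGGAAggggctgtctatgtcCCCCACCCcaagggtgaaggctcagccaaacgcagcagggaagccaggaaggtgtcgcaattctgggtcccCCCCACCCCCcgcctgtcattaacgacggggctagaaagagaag
Ifngr1: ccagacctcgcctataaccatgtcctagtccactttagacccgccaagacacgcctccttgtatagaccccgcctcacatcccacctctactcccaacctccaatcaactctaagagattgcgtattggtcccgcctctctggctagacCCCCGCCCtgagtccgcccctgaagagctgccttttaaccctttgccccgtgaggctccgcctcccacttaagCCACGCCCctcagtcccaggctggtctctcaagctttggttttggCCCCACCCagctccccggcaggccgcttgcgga
Flt3 held 1 match to CCNCNCCC and none to GAGGAA, Csf3r held 3 and 1, and Ifngr1 held 3 and none. In Csf3r the pair of CCNCNCCC matches after the start site overlap each other. All 7 promoters held at least 1 match to CCNCNCCC, which 49.5% of 32851 promoters in the table also held. GAGGAA was found in 3 of the 7, namely Csf2ra, Csf3r and Il6ra, against 28.3% of those 32851 promoters.

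Loss of EKLF was examined first in the gene it removes. Klf1 fell from 362, 305 and 376 CPM (counts scaled to library size with TMM) in EKLF+/+ replicates 1 to 3 to 58.7, 64.2 and 57.1 CPM in EKLF-/- replicates 1 to 3. The groups were far apart, with a 5.79-fold lower level in EKLF-/- (log2 fold change -2.53, standard error 0.12, adjusted p = 7.2e-06 by the quasi-likelihood test of edgeR, Benjamini-Hochberg adjusted). Adgre1, which encodes F4/80, lay between 26.8 and 33.6 CPM in EKLF+/+ and between 29.4 and 40.3 CPM in EKLF-/-, and it did not pass the test (adjusted p = 0.604, edgeR). The share of reads that fell on genes was 27.31% to 28.95% in EKLF+/+ and 31.07% to 32.78% in EKLF-/-, and its part in the differences below was not tested.

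In EKLF-/- cells, 3 of the 10 receptors rose (Csf2ra, Tnfrsf1a and Ifngr1) and Flt3 fell. Of all 12753 genes tested, 9.72% were higher and 10.6% lower at an adjusted p under 0.05. The median log2 fold change of the receptors was 0.40, beside 0.02 over all genes. The receptors that rose take up GM-CSF, TNF and interferon gamma, and the one that fell takes up FLT3 ligand.

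**Figure D1:**
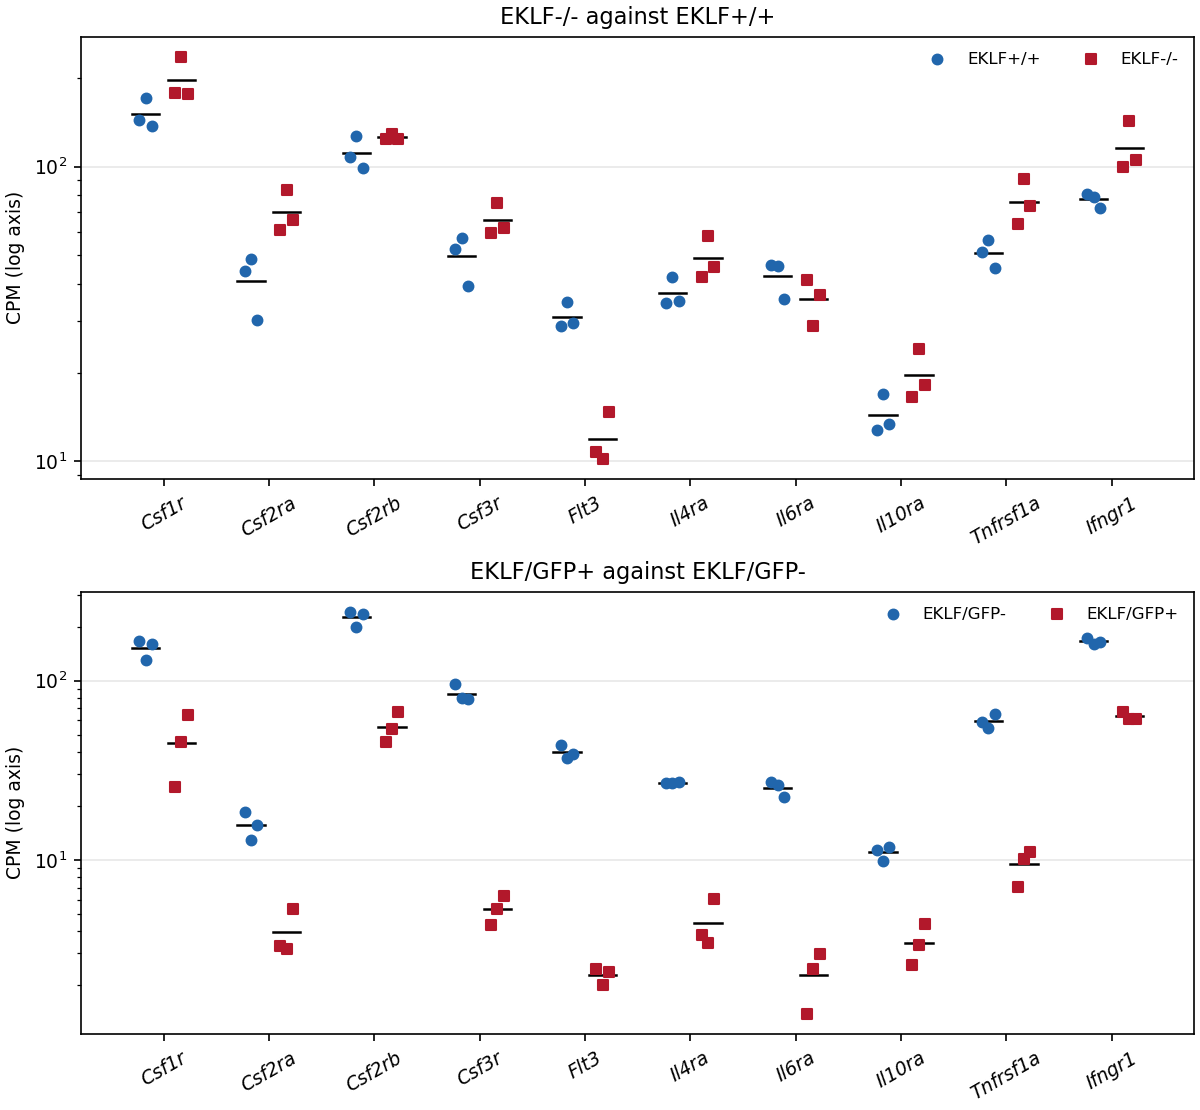
CPM of the 10 receptors in every bulk library, on a log axis, with 3 libraries per group and a bar at each group's mean. In the upper panel Flt3 is the receptor that is lower in all 3 EKLF-/- libraries, while in the lower panel each receptor is lower in all 3 EKLF/GFP+ libraries than in any EKLF/GFP- library.

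Flt3 (chromosome 5 of GRCm38, 147330741 to 147400489, minus strand) had 28.7, 34.7 and 29.5 CPM in EKLF+/+ replicates 1 to 3 and 10.8, 10.2 and 14.7 CPM in EKLF-/- replicates 1 to 3. Every EKLF-/- library was below every EKLF+/+ library, a pattern that 23.4% of all genes tested had. The level was 2.61-fold lower in EKLF-/- (log2 fold change -1.38, standard error 0.17, adjusted p = 0.00151, edgeR). This call held when any library was left out, with log2 fold changes from -1.56 to -1.30. Its ligand moved the other way, since Flt3l rose from 9.98, 9.93 and 9.96 CPM in EKLF+/+ to 19.1, 20.3 and 21.1 CPM in EKLF-/- (log2 fold change 1.02, standard error 0.13, adjusted p = 0.00159, edgeR). Both groups were tight for this ligand, and they did not overlap.

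Csf2ra (chromosome 19, 61223957 to 61228429, minus strand) had 44.4, 48.6 and 30.3 CPM in EKLF+/+ and 61.0, 83.5 and 65.9 CPM in EKLF-/-, in the order of replicates 1 to 3. The groups did not overlap, and the level was 1.70-fold higher in EKLF-/- (log2 fold change 0.77, standard error 0.19, adjusted p = 0.0278, edgeR). Csf2rb, with which it pairs in the GM-CSF receptor, had 108, 127 and 98.7 CPM in EKLF+/+ and 124, 129 and 124 CPM in EKLF-/-. These groups overlapped, and the 95% interval of the log2 fold change ran from -0.09 to 0.43 (adjusted p = 0.281, edgeR). The signalling chain has a near-identical copy, Csf2rb2, so reads that match both cannot be assigned with certainty and values of either are uncertain. Csf2rb2 had 18.8 to 20.8 CPM in EKLF+/+ and 16.3 to 19.1 CPM in EKLF-/- (log2 fold change -0.19, adjusted p = 0.297, edgeR).

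Tnfrsf1a (chromosome 6, 125349362 to 125362484, plus strand) had 51.3, 56.3 and 45.2 CPM in EKLF+/+ against 63.8, 90.9 and 73.4 CPM in EKLF-/-. For Ifngr1 (chromosome 10, 19591949 to 19610229, plus strand) the values were 80.9, 78.9 and 72.7 CPM against 99.5, 143 and 105 CPM. For both genes the lowest EKLF-/- library exceeded the highest EKLF+/+ library, and EKLF-/- replicate 2 was the highest of all. Each was 1.49-fold higher in EKLF-/- (log2 fold change 0.58, standard error 0.15), with adjusted p = 0.0318 for Tnfrsf1a and 0.0289 for Ifngr1 by edgeR. The second chain of the interferon gamma receptor, Ifngr2, rose too, from 27.8, 31.6 and 29.0 CPM to 36.8, 51.6 and 39.3 CPM (log2 fold change 0.53, standard error 0.15, adjusted p = 0.0419, edgeR).

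The other 6 receptors did not pass the test. Csf1r had 144, 171 and 137 CPM in EKLF+/+ and 178, 236 and 176 CPM in EKLF-/-. Its groups did not overlap, but the log2 fold change of 0.38 (95% interval 0.05 to 0.72) had an adjusted p of 0.093 by edgeR. Csf3r, with 52.5, 57.4 and 39.3 CPM against 59.7, 75.6 and 62.0 CPM, and Il4ra, with 34.4, 42.2 and 35.1 CPM against 42.4, 58.3 and 45.8 CPM, were likewise higher in each EKLF-/- library (adjusted p = 0.106 and 0.0992, edgeR). Groups without overlap, with EKLF-/- higher, were seen for 22.9% of all genes tested. Il10ra ranged from 12.8 to 16.9 CPM in EKLF+/+ and from 16.5 to 24.1 CPM in EKLF-/- (adjusted p = 0.12, edgeR). Il6ra was the only receptor besides Flt3 with a lower mean in EKLF-/-, at 35.7 to 46.3 CPM in EKLF+/+ and 28.8 to 41.4 CPM in EKLF-/- (adjusted p = 0.275, edgeR), and for this receptor as for Il10ra the groups overlapped.

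The rises were less firm than the fall of Flt3. Without EKLF+/+ replicate 1, 2 or 3, or without EKLF-/- replicate 3, none of the 3 rises stayed past the threshold, with log2 fold changes of 0.47 to 0.89 and adjusted p from 0.0514 to 0.119 (edgeR), although 3 to 7 receptors were then higher at an unadjusted p under 0.05. Without EKLF-/- replicate 1 or 2 all 3 rises were called. Markers of other myeloid cells moved with the genotype: 5 of 9 neutrophil-like markers and 2 of 8 monocyte-like markers rose. Their summed levels went from 5564 to 7261 CPM in EKLF+/+ to 7631 to 14840 CPM in EKLF-/- for the neutrophil-like list, and from 888 to 1132 CPM to 1264 to 2237 CPM for the monocyte-like list. Elane, a neutrophil granule protease, was highest in EKLF-/- replicate 2 at 1027 CPM, the library that was also highest for Csf2ra, Tnfrsf1a and Ifngr1. That library was highest as well for the macrophage-like marker Cd68 (34.5 CPM) and the megakaryocyte-like marker Pf4 (112 CPM). Among EKLF-/- libraries, Ngp and Ltf of the neutrophil-like list were highest in replicate 3, at 608 and 557 CPM. Of the endothelial-like markers 5 of 6 fell (sums of 186 to 224 CPM in EKLF+/+ and 113 to 124 CPM in EKLF-/-), and of the mesenchymal-like markers tested 4 of 5 fell (35.6 to 132 CPM and 20.3 to 31.3 CPM). Of the 6 progenitor-like markers 3 fell, and their sum went from 659 to 799 CPM down to 528 to 550 CPM. The erythroid-like sum, with 5 of 8 markers called lower, went from 13873 to 18472 CPM down to 3277 to 4435 CPM, while the macrophage-like sum, with 3 of 13 called lower, was 228 to 320 CPM in EKLF+/+ and 196 to 353 CPM in EKLF-/-. The part of these cells in the receptor differences was not tested, and in bulk samples fewer cells of a type and less RNA per cell cannot be told apart.

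**Figure D2:**
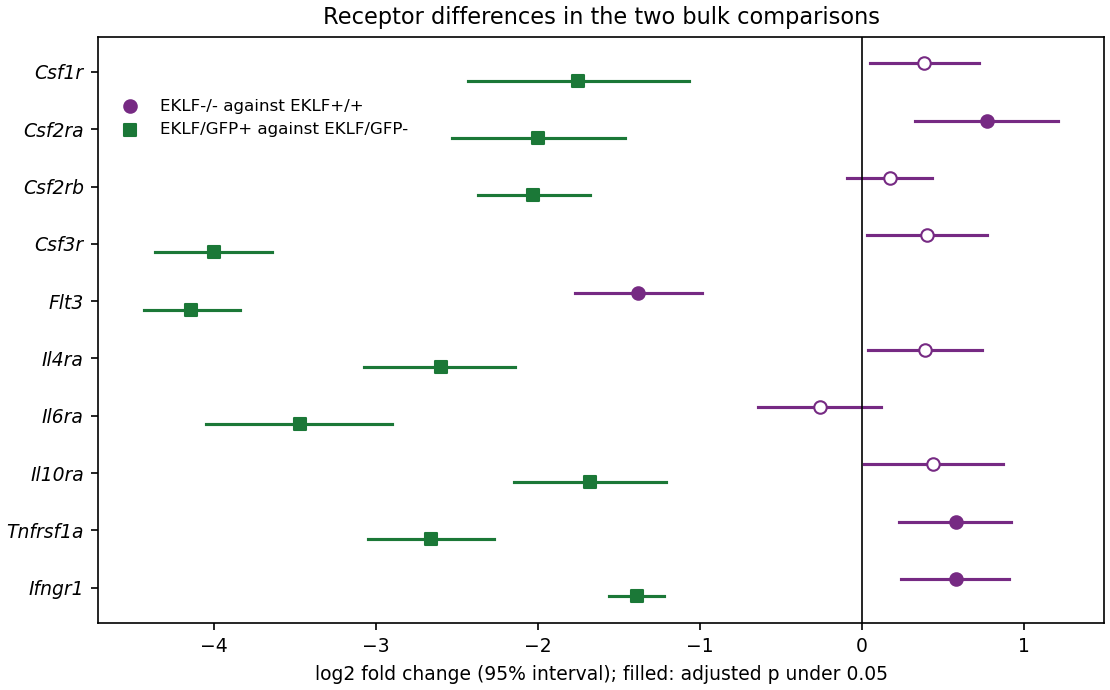
Log2 fold change of each receptor with its 95% interval in both bulk comparisons, filled where the adjusted p of edgeR's test was under 0.05. The EKLF/GFP differences run from -4.14 for Flt3 to -1.39 for Ifngr1, whereas the EKLF-/- differences run from -1.38 for Flt3 to 0.77 for Csf2ra.

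Ligands, partners and signalling genes of the receptors are given beside the 20.3% of all genes that were called in either direction in EKLF-/-. Of 4 ligands with enough reads to test, Flt3l rose. Of 9 partner subunits and second receptors, Ifngr2 rose. Among 7 inhibitors, Socs3, which blocks signalling by IL-6 family receptors and Csf3r, fell from between 8.96 and 12.7 CPM to between 3.41 and 4.59 CPM (log2 fold change -1.46, standard error 0.21, adjusted p = 0.00269, edgeR). Of the 14 kinases, STATs and adaptors 0 passed by edgeR and 0 by DESeq2, 3 had an unadjusted p under 0.05 by edgeR, and their median log2 fold change was 0.01.

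The sorted EKLF/GFP populations differed far more. All 10 receptors fell in EKLF/GFP+ cells relative to EKLF/GFP- cells, from 17.6-fold for Flt3 to 2.62-fold for Ifngr1. Of 14249 genes tested, 25.8% were lower and 18.9% higher, and the receptors' median log2 fold change was -2.32 beside -0.01 over all genes. Klf1 followed the sort, with 34.6, 45.7 and 28.6 CPM in EKLF/GFP- replicates 1 to 3 and 101, 90.2 and 87.3 CPM in EKLF/GFP+ replicates 1 to 3 (log2 fold change 1.35, standard error 0.16, adjusted p = 3.2e-04, edgeR). Adgre1 ranged from 48.8 to 84.5 CPM in EKLF/GFP- and from 36.6 to 104 CPM in EKLF/GFP+, and it did not pass the test (adjusted p = 0.679, edgeR).

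Flt3 and Csf3r had the largest differences of the 10 receptors. Flt3 had 43.9, 37.2 and 39.0 CPM in EKLF/GFP- and 2.47, 1.99 and 2.35 CPM in EKLF/GFP+ (log2 fold change -4.14, standard error 0.13, adjusted p = 4.1e-06, edgeR). For Csf3r (chromosome 4, 126024550 to 126044440, plus strand) the values were 95.3, 79.5 and 79.3 CPM against 4.32, 5.31 and 6.28 CPM, or 16.0-fold lower (log2 fold change -4.00, standard error 0.16, adjusted p = 5.9e-06, edgeR). In both genes the lowest EKLF/GFP- library was far above the highest EKLF/GFP+ library. Behind the EKLF/GFP+ values lie few reads, with 48 as the lowest count of Flt3 in a library and 119 as that of Csf3r.

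The interleukin receptors fell by 3.20- to 11.1-fold. Il6ra (chromosome 3, 89864059 to 89913196, minus strand) had 27.0, 26.1 and 22.3 CPM in EKLF/GFP- and 1.38, 2.45 and 2.98 CPM in EKLF/GFP+, which is 11.1-fold lower (log2 fold change -3.47, standard error 0.25, adjusted p = 3.0e-05, edgeR). Il4ra (chromosome 7, 125552120 to 125579474, plus strand) had 26.9, 26.7 and 27.1 CPM against 3.81, 3.44 and 6.01 CPM, which is 6.08-fold lower (adjusted p = 3.8e-05, edgeR). Il10ra (chromosome 9, 45253837 to 45269149, minus strand) had 11.3, 9.85 and 11.8 CPM against 2.57, 3.36 and 4.38 CPM, which is 3.20-fold lower (adjusted p = 3.3e-04, edgeR). In each of them the EKLF/GFP- libraries lay close together, and EKLF/GFP+ replicate 3 was the highest of its group. Tnfrsf1a fell in the same range, from 58.6, 54.2 and 65.4 CPM to 7.07, 10.1 and 11.1 CPM (6.32-fold, log2 fold change -2.66, standard error 0.17, adjusted p = 1.9e-05, edgeR).

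Csf1r, the chains of the GM-CSF receptor and Ifngr1 fell by no more than 4.07-fold, as did Il10ra. Csf1r (chromosome 18, 61100598 to 61132149, plus strand) had 166, 130 and 160 CPM in EKLF/GFP- and 25.4, 45.3 and 64.5 CPM in EKLF/GFP+, a 3.37-fold lower level (log2 fold change -1.75, standard error 0.29, adjusted p = 0.00177, edgeR). Its standard error was the largest of the 10 receptors, and the library with the lowest Csf1r was also lowest for Adgre1. Csf2rb (chromosome 15, 78325752 to 78353847, plus strand) had 242, 200 and 235 CPM against 45.6, 53.5 and 67.1 CPM (4.07-fold lower, adjusted p = 3.3e-05, edgeR), and its copy Csf2rb2 was 2.04-fold lower (adjusted p = 3.1e-04, edgeR). Ifngr1 had 172, 160 and 165 CPM against 66.7, 61.4 and 61.4 CPM, with the smallest standard error of all (log2 fold change -1.39, standard error 0.07, adjusted p = 1.1e-05, edgeR).

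Csf2ra had 18.5, 12.9 and 15.6 CPM in EKLF/GFP- and 3.30, 3.19 and 5.29 CPM in EKLF/GFP+, or 3.99-fold lower (adjusted p = 2.6e-04, edgeR). This value depends on which transcripts are counted. In the authors' table of normalized counts, Csf2ra is listed at 0 in 3 of 6 libraries, which are the libraries where Salmon gave no read to the coding transcript Csf2ra-201. On that table the log2 fold change was 1.09 with a standard error of 2.17, so its direction was not determined (adjusted p = 0.735, limma). Summed over both coding transcripts, Csf2ra had 18.1, 18.6 and 29.6 reads in EKLF/GFP+ replicates 1 to 3 and 114, 81.2 and 137 reads in EKLF/GFP- replicates 1 to 3, and these groups did not overlap.

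No receptor's range in EKLF/GFP+ reached that in EKLF/GFP-, a pattern seen for 30.5% of all genes tested, while 25.2% had the opposite one. Markers of several cell types moved with the sort as well. All 8 monocyte-like and all 9 neutrophil-like markers fell, with sums of 1257 to 1434 CPM in EKLF/GFP- and 99.6 to 167 CPM in EKLF/GFP+ for the monocyte-like list, and of 4056 to 4708 CPM and 473 to 760 CPM for the neutrophil-like list. Of 13 macrophage-like markers tested, Cd68 fell and Hmox1 rose, and their sum was 286 to 468 CPM in EKLF/GFP- and 280 to 718 CPM in EKLF/GFP+. All 11 erythroid-like and all 6 megakaryocyte-like markers rose, while 5 of 6 progenitor-like, 6 of 7 dendritic cell-like and 6 of 6 lymphoid-like markers tested fell. Of the endothelial-like markers 5 of 6 fell, from sums of 184 to 205 CPM to sums of 59.0 to 93.0 CPM. Among the lymphoid-like genes that could not be tested, Cd3e was at 0 in every library. The part of these cells in the fall of the receptors was not tested.

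Levels of different receptors can be set side by side per transcript length, as TPM summed over coding transcripts. In EKLF/GFP- cells Csf2rb was the highest at 138 ± 27.4 TPM (SD, n = 3), followed by Csf1r at 51.3 ± 9.86 TPM and Ifngr1 at 45.5 ± 3.06 TPM, which lie within their spread of each other. Tnfrsf1a at 16.7 ± 0.841 TPM and Csf3r at 13.6 ± 1.5 TPM came next, then Flt3 at 6.97 ± 0.851 TPM, Il4ra at 5.13 ± 1.03 TPM and Il6ra at 4.55 ± 0.574 TPM. Il10ra at 2.07 ± 0.173 TPM and Csf2ra at 1.64 ± 0.539 TPM closed the order on this scale and lie within their spread of each other. The order changed when all transcripts of a gene were summed. Csf2rb at 142 ± 30.6 TPM and Tnfrsf1a at 134 ± 41 TPM then lay within their spread of each other, and Ifngr1 at 84.5 ± 6.36 TPM was above Csf1r at 53 ± 10.3 TPM in every library. Csf3r was at 31.8 ± 6.25 TPM, Csf2ra at 16.5 ± 3.61 TPM and Il4ra at 9.65 ± 0.924 TPM, all above Flt3 at 6.98 ± 0.848 TPM, while Il6ra at 4.55 ± 0.574 TPM and Il10ra at 2.13 ± 0.171 TPM were the lowest.

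In EKLF/GFP+ cells the TPM over coding transcripts was lower. Csf2rb at 29.3 ± 6.47 TPM, Ifngr1 at 16.6 ± 2.4 TPM and Csf1r at 12.9 ± 5.99 TPM were again at the top, and on this scale the latter pair did not differ beyond their spread. Tnfrsf1a had 2.92 ± 0.783 TPM, and the other 6 receptors lay between 0.314 and 0.945 TPM. Flt3, at 0.381 ± 0.0666 TPM, was below Il10ra, at 0.668 ± 0.165 TPM. Il6ra, at 0.386 ± 0.153 TPM, was below Il10ra within each library, although the ranges of this pair overlapped. Over all transcripts, Ifngr1 at 35.8 ± 3.06 TPM was above Csf1r at 13 ± 5.93 TPM in every EKLF/GFP+ library. Tnfrsf1a at 20.6 ± 8.94 TPM was also above Csf1r within each library, although the ranges of this pair overlapped. The scales differ for 5 receptors, for which coding transcripts made up 9.98% ± 3.08 (Csf2ra), 13.2% ± 3.64 (Tnfrsf1a), 43.4% ± 3.41 (Csf3r), 52.7% ± 6.04 (Il4ra) and 54.1% ± 4.43 (Ifngr1) of the TPM in EKLF/GFP- cells (SD, n = 3). For the other 5 this share was 96.9% to 100%. Such shares rest on reads that transcripts of a gene have in common. In EKLF+/+ cells, CPM divided by exon length in kilobases ran from 4.04 ± 0.595 for Il10ra to 26.8 ± 2.08 for Ifngr1 (SD, n = 3), with Csf1r at 25.7 ± 3.04 and Flt3 at 4.94 ± 0.483. Csf2rb, the highest in TPM by mean over coding or over all transcripts in EKLF/GFP- cells, was here at 15 ± 1.97, below Csf1r, Ifngr1 and Tnfrsf1a at 19.4 ± 2.28, and Csf2ra was at 14.1 ± 3.45.

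Partners and signalling genes of these receptors were also tested in EKLF/GFP+ cells, where 44.7% of all genes were called in either direction. Of 9 partner subunits and second receptors, 7 were lower and Il5ra, the IL-5 receptor chain, was 1.76-fold higher (adjusted p = 0.016, edgeR). Il6st (gp130), the shared signalling chain of the IL-6 family, fell from 48.4, 45.3 and 51.0 CPM to 7.07, 9.54 and 8.83 CPM, Tnfrsf1b from 22.9, 21.8 and 17.2 CPM to 2.83, 3.32 and 5.33 CPM, and Il13ra1 from 11.7, 10.1 and 12.3 CPM to 1.41, 3.11 and 4.22 CPM. All 3 were past the threshold with no overlap between groups (adjusted p = 9.9e-06, 1.2e-04 and 0.00185, edgeR).

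Of 14 kinases, STATs and adaptors, 8 fell and Jak2 rose, beside 25.8% and 18.9% of all genes. Stat4, which acts below the IL-12 receptor, fell 6.04-fold, and Jak3, the kinase that binds the common gamma chain, fell 3.53-fold (adjusted p = 1.1e-05 and 1.7e-05, edgeR). Jak2, which also serves the erythropoietin receptor, was 1.37-fold higher (adjusted p = 0.00212, edgeR). Inhibitors went both ways: Socs2, Cish and Socs3, which are STAT target genes, were 2.18-, 2.17- and 1.83-fold higher, while the phosphatases Ptpn6 and Inpp5d and the ubiquitin ligase Cbl were 3.88-, 1.88- and 1.79-fold lower, all past the threshold (edgeR). Among 5 ligands tested, Flt3l and Il4 were 1.80- and 1.65-fold higher and Tnf was 5.25-fold lower, the latter 2 at under 3 CPM in every library (adjusted p = 0.00247, 0.0265 and 1.9e-04, edgeR). The call of Il4 was lost with DESeq2 (adjusted p = 0.0597). Flt3l thus rose in EKLF/GFP+ and in EKLF-/- cells, and in both comparisons Flt3 fell.

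**Figure D3:**
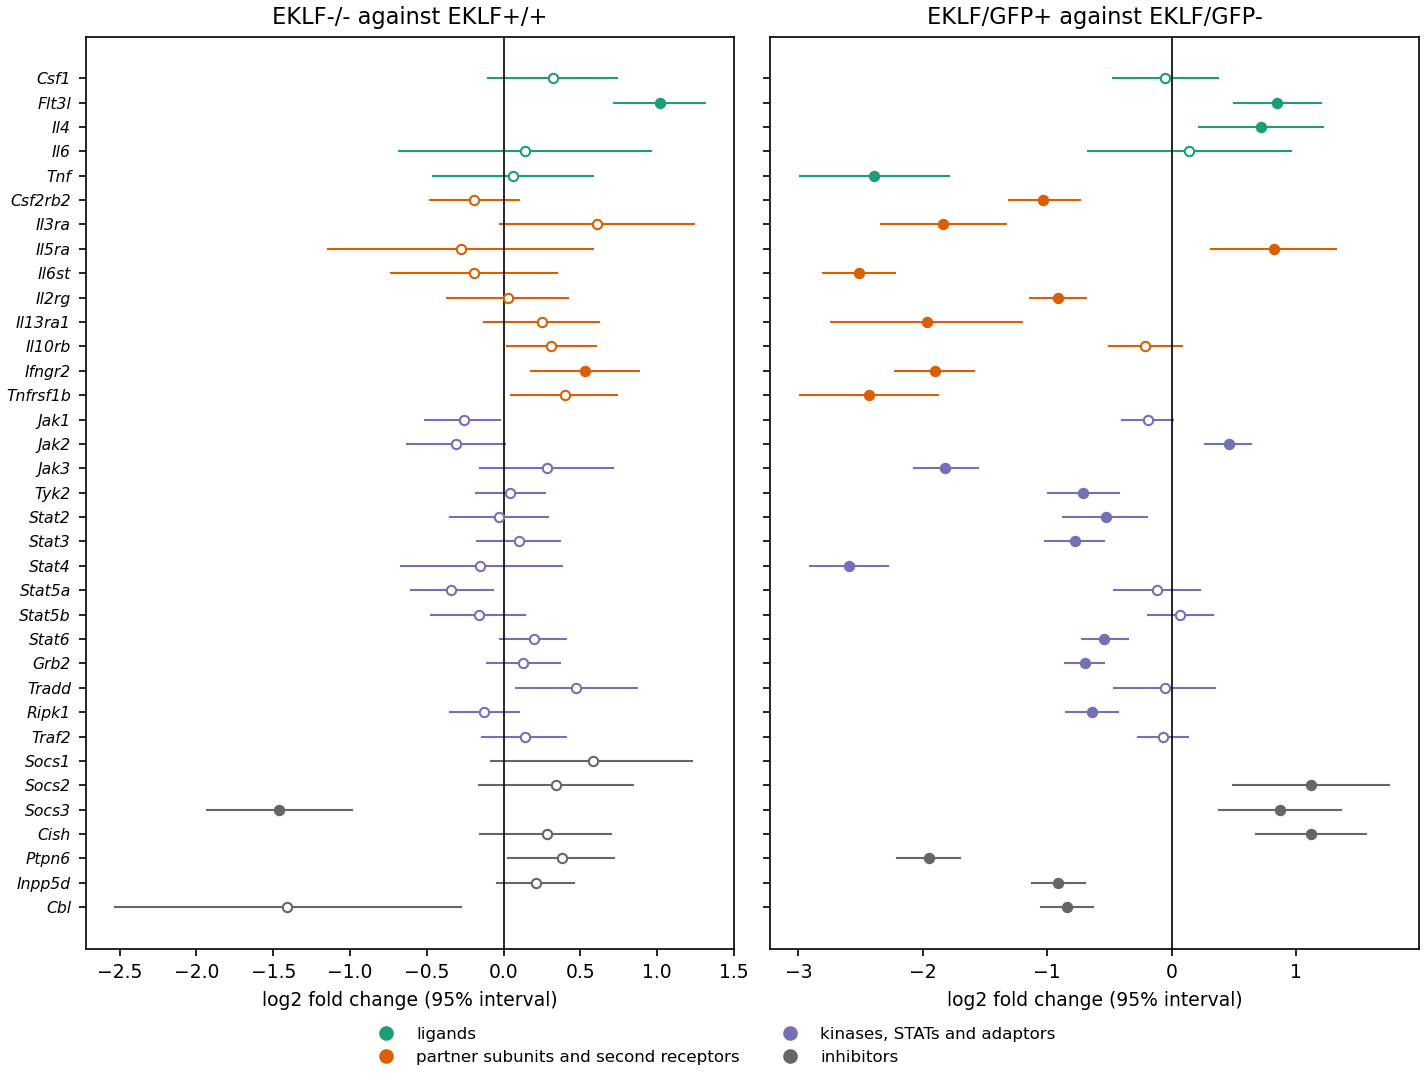
Log2 fold changes with 95% intervals of ligands, partner subunits, kinases, STATs, adaptors and inhibitors in both bulk comparisons, filled where the adjusted p was under 0.05. In EKLF-/- the filled points are Flt3l, Ifngr2 and Socs3, whereas in EKLF/GFP+ 7 partner subunits and 8 kinases, STATs and adaptors are filled left of 0.

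The single-cell library shows which F4/80-selected cells carry each receptor. Of 3096 barcodes, 3093 had at least 200 detected genes, with a median of 18605 counts. They were clustered with the receptors left out, and levels are the CPM of the counts summed over a cluster with an exact 95% Poisson interval, which covers counting error only, as do the 95% Wilson intervals of shares of cells. With 1 library there is no test between cell types. The macrophage-like cells (clusters 0, 1, 2 and 4) numbered 1439, or 46.5% of all, and Adgre1 was at 354 to 784 CPM in them. The erythroid-like cells (clusters 5, 7 and 8) numbered 621, and there were 220 neutrophil-like, 87 megakaryocyte-like, 84 endothelial-like and 67 hepatoblast-like cells, in all of which Adgre1 was between 22.5 and 52.9 CPM.

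Not every cluster was given a cell type. Cluster 3, with 283 cells, was led by Ccr2, a receptor of monocytes, but also by Cd74 and H2-Aa of antigen-presenting cells, and is called Ccr2-high. Cluster 10, with 116 cells, was led by Ifitm1 and by Cpa3, Gata2 and Mcpt8 of mast cells and basophils. Gata2 is also a progenitor-like marker here, and the cluster is called Ifitm1-high. Cluster 9 (122 cells) was led by Tmcc2, Ypel4 and Xpo7 and held Adgre1 at 512 CPM, and cluster 14 (54 cells) had a median of 5170 counts and was led by ribosomal pseudogenes. Cluster 1, although counted as macrophage-like for 13 of its 14 markers, was led by ribosomal pseudogenes too and had a median of 9774 counts.

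**Figure D4:**
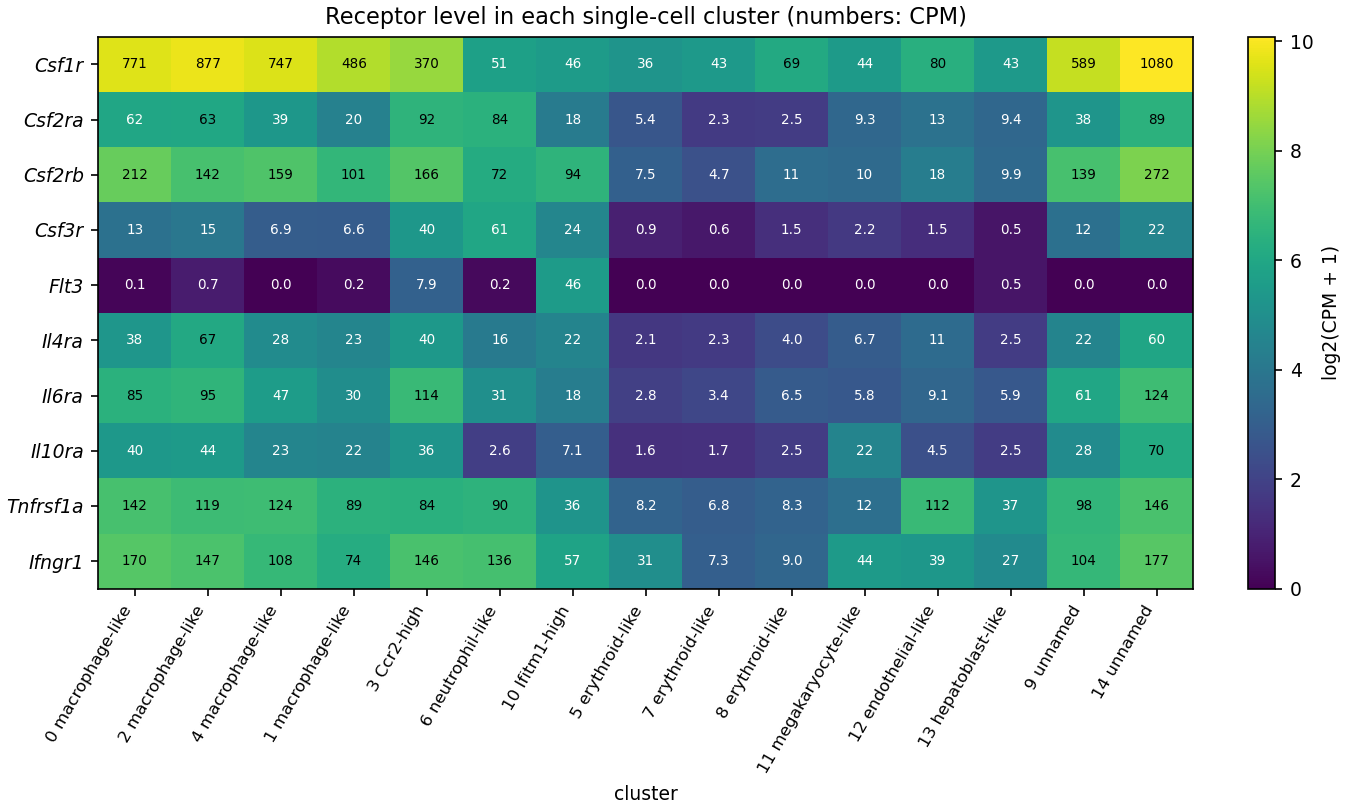
CPM of each receptor (rows) in the 15 single-cell clusters (columns), colored by log2(CPM + 1) and printed in each field. Csf1r is above 300 CPM in the macrophage-like clusters, the Ccr2-high cluster and both unnamed clusters, Csf3r is highest in the neutrophil-like cluster, and Flt3 exceeds 10 CPM in cluster 10 alone.

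Csf1r marked the macrophages. It was at 753 CPM (743 to 764) in macrophage-like cells, from 486 CPM in cluster 1 to 877 CPM in cluster 2, and at 370 CPM (356 to 384) in Ccr2-high cells. Neutrophil-like, Ifitm1-high, megakaryocyte-like, hepatoblast-like and erythroid-like cells held a like low level of 42.9 to 51.3 CPM. With each cell thinned to 5000 counts, 92.5% (91.1 to 93.8) of macrophage-like cells had a UMI, against 16.8% (14.1 to 19.9) of erythroid-like cells, which are not known to use this receptor. Before thinning these shares were 97.3% and 56.5%, at median depths of 14482 and 27160 counts. A share at or below that of erythroid-like cells is not read as expression, although erythroid-like clusters themselves ran from 36.5 CPM (33.1 to 40.1) in cluster 5 to 69.2 CPM (60.4 to 78.9) in cluster 8, and RNA outside cells was not measured. Unnamed clusters 9 and 14 held 589 CPM (549 to 631) and 1080 CPM (969 to 1201).

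The chains of the GM-CSF receptor were spread over several cell types. Among named classes, Csf2ra was highest in Ccr2-high cells at 92.1 CPM (85.2 to 99.5) and neutrophil-like cells at 84.5 CPM (76.9 to 92.7), whose intervals overlap, and lower in macrophage-like cells at 52.6 CPM (49.8 to 55.4). Csf2rb reached 166 CPM (157 to 176) in Ccr2-high cells and 165 CPM (160 to 170) in macrophage-like cells, with 212 CPM in cluster 0, and 71.7 CPM (64.7 to 79.3) in neutrophil-like cells. The unnamed cluster 14 held 272 CPM (218 to 336) of Csf2rb and 88.7 CPM (58.9 to 128) of Csf2ra. Ifitm1-high cells held 93.9 CPM (83.8 to 105) of Csf2rb but 17.5 CPM (13.3 to 22.5) of Csf2ra. At 5000 counts per cell, both chains were found together in 23.9% (19.3 to 29.3) of Ccr2-high, 10.9% (9.43 to 12.7) of macrophage-like and 9.72% (6.45 to 14.4) of neutrophil-like cells, and in 29% (16.1 to 46.6) of the 31 cells of cluster 14 deep enough to thin. In erythroid-like cells the levels were 4.09 CPM for Csf2ra and 7.34 CPM for Csf2rb.

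Csf3r followed the granulocyte cells. It was at 60.6 CPM (54.2 to 67.6) in neutrophil-like cells, 39.8 CPM (35.3 to 44.7) in Ccr2-high cells, 23.7 CPM (18.8 to 29.5) in Ifitm1-high cells and 11.8 CPM (10.5 to 13.2) in macrophage-like cells. None of these intervals overlap. In erythroid-like cells it was at 0.898 CPM (0.532 to 1.42). The thinned shares of cells fell in the same order, from 30.1% (24.4 to 36.5) of neutrophil-like cells to 5.3% (4.25 to 6.58) of macrophage-like cells, with 0.485% in erythroid-like cells.

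Flt3 was the receptor limited to the fewest cells. Of 108 cells with a Flt3 UMI, 58 were in the Ifitm1-high cluster and 40 in the Ccr2-high cluster. The level was 45.6 CPM (38.7 to 53.4) in Ifitm1-high cells and 7.87 CPM (5.94 to 10.2) in Ccr2-high cells, while 1439 macrophage-like cells gave 0.309 CPM (0.133 to 0.609). The 621 erythroid-like cells held no Flt3 UMI, for which the interval ends at 0.184 CPM. Inside the Ifitm1-high cluster, Cpa3, Mcpt8 and Gata2 were found in fewer of the cells with Flt3 than of those without. Cpa3, a mast cell protease, had a UMI in 3 of 58 cells with Flt3, or 5.17% (1.77 to 14.1), and in 36 of 58 cells without, or 62.1% (49.2 to 73.4), at median depths of 24347 and 25077 counts. Mcpt8 had a UMI in none of 58 cells with Flt3 (0% to 6.21%) and in 24.1% (15 to 36.5) of those without. Gata2, a marker here of both mast cells or basophils and progenitors, was found in 19 of 58 cells with Flt3, or 32.8% (22.1 to 45.6). Of the cells without Flt3, 81% (69.1 to 89.1) had Gata2. Cd34, another progenitor-like marker, was found in 87.9% (77.1 to 94) and 69% (56.2 to 79.4), and these intervals overlap. In the Ccr2-high cluster, Cd74 was found in 52.5% (37.5 to 67.1) of cells with Flt3 and 32.5% (26.9 to 38.6) of those without, and Ccr2 in 95% and 95.1%. Median depths there were 28577 counts with Flt3 and 23299 without.

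Among named classes, the interleukin receptors were highest in macrophage-like or Ccr2-high cells, while the shallow unnamed cluster 14 held 124 CPM (87.8 to 169) of Il6ra, 60.2 CPM (36.2 to 94) of Il4ra and 69.7 CPM (43.7 to 106) of Il10ra. Il6ra was at 114 CPM (106 to 122) in Ccr2-high cells, 74.4 CPM (71.1 to 77.8) in macrophage-like cells and 31.4 CPM (26.8 to 36.5) in neutrophil-like cells. Il4ra, at 43.8 CPM (41.2 to 46.4) and 40.5 CPM (35.9 to 45.4), did not differ between macrophage-like and Ccr2-high cells beyond counting error, and among macrophage-like clusters it was highest in cluster 2 at 67.1 CPM. Cluster 2 was led by Fcrls and Cx3cr1, and it also had the highest Csf1r of the macrophage-like clusters. Il10ra was at 36.3 CPM (34.1 to 38.7) in macrophage-like cells, 35.7 CPM (31.4 to 40.3) in Ccr2-high cells and 2.63 CPM (1.44 to 4.41) in neutrophil-like cells. Megakaryocyte-like cells held 22.2 CPM (17.5 to 27.8) of Il10ra, in 24 of 87 cells, against 1.8 CPM (1.26 to 2.49) in erythroid-like cells.

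Tnfrsf1a and Ifngr1 were found in cells of several classes. Tnfrsf1a was at 124 CPM (119 to 128) in macrophage-like cells, 112 CPM (94.5 to 131) in endothelial-like cells and 90.3 CPM (82.4 to 98.8) in neutrophil-like cells, and the first pair overlap. At 5000 counts per cell, 48.2% (37.8 to 58.8) of endothelial-like and 43.8% (41.2 to 46.3) of macrophage-like cells had a Tnfrsf1a UMI, against 3.72% (2.49 to 5.51) of erythroid-like cells. Ifngr1 levels overlapped within counting error in Ccr2-high cells at 146 CPM (138 to 156), macrophage-like cells at 139 CPM (135 to 144) and neutrophil-like cells at 136 CPM (126 to 146). The thinned shares of cells with an Ifngr1 UMI did not overlap, at 53.6% (47.7 to 59.3), 44.5% (42 to 47.1) and 35.2% (29.1 to 41.8). Macrophage-like clusters ranged from 74 CPM in cluster 1 to 170 CPM in cluster 0. Erythroid-like clusters were not alike either, with 30.6 CPM (27.5 to 34) in cluster 5 and 7.35 CPM (5.22 to 10) and 8.96 CPM (6 to 12.9) in clusters 7 and 8. Macrophage-like cells held 6.62 times the Ifngr1 level of erythroid-like cells, and 12.9 to 22.5 times the level of each other receptor except Flt3.

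Counted together at 5000 counts per cell, the 10 receptors gave a mean of 3.67 receptors found per Ccr2-high cell, 3.17 per macrophage-like cell and 2.13 per neutrophil-like cell. Erythroid-like cells had a mean of 0.359, and 69% of them had none, against 2.23% of macrophage-like cells.

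Across the 15 clusters, the genes most like each receptor among the 5810 others (5811 for Flt3) with at least 50 CPM in a cluster were ranked by Pearson's r of log2(CPM + 10), as a description of points that share a library and differ in depth. Csf1r was most like Tnfrsf11a, the RANK receptor (r = 0.995), Tlr2 (0.991) and Hpgds (0.990). Csf3r was most like Ncf1 (0.962), a subunit of the NADPH oxidase, Myo1g (0.962) and Itgam (0.952), the CD11b integrin. Flt3 was most like Ifitm1 (0.982), Tespa1 (0.958) and Trbc2 (0.947), genes of the cluster that held it. Il4ra was most like Ptprc (0.964), which encodes CD45, Dock10 (0.958) and another receptor of the list, Il6ra (0.953). For the others r was 0.948 to 0.985, with Gmip, Fgd4 and Cers6 for Csf2ra, Lpcat2, Lcp1 and Abr for Csf2rb, Tor1aip1, 9930111J21Rik2 and Unc93b1 for Il6ra, Gsap, Cd180 and Akr1b10 for Il10ra, Man1c1, Snx18 and Lamp2 for Tnfrsf1a, and Scamp2, Iqgap1 and Fam49b for Ifngr1.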

How the data were processed

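The authors aligned reads of the EKLF+/+ and EKLF-/- libraries with STAR to mm10 and deposited raw counts per gene from htseq-count. For the EKLF/GFP libraries, the authors deposited Salmon estimated counts and TPM per transcript against GRCm38. Estimated counts were summed per gene with GENCODE vM21 and rounded. The authors' normalized counts are a signal that the authors scaled with tximport and DESeq2, and they entered alternatives only. Single-cell values are molecule counts that the authors estimated with Alevin and deposited, of which 4.33% of nonzero values were not whole. Versions of these tools are not given in the sources used here. A table of the authors' log2 values and fold changes was not used. In the EKLF+/+ and EKLF-/- files, 2287 older symbols were translated where the match was unique, and columns of 1 file that repeat the other 5 libraries were not used. Reads that HTSeq gave to no feature, 38.74% to 44.2%, and its other non-gene lines were left out.

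Depth was 10695514 to 15362161 counts per library for EKLF+/+ and EKLF-/- and 22721819 to 28735267 for EKLF/GFP, so genes under 3 CPM rest on few reads. Genes that reached 10 counts in 3 or more of the 6 libraries were tested in each comparison alone with the quasi-likelihood test of edgeR 4.0.16 (R 4.3.3, TMM, two-sided), and p-values were adjusted by Benjamini-Hochberg over all genes with a threshold of 0.05. With 3 against 3, the smallest two-sided exact p is 0.1. The test was also run on simulated data, and the outcome is not given here. Cells with at least 200 genes were clustered with Seurat 5.3.0 (4000 variable genes without the receptors, 30 principal components, resolution 0.8). Scrublet (scanpy 1.11.5) marked 2 of 3093 cells as doublets, so doublets were in effect not removed. Alternatives were DESeq2 1.42.0, its size factors, 2 other filters, the replicate number as a block, no globin genes, transcript length offsets, limma 3.58.1 on the authors' normalized counts, each library left out, and for single cells no doublets, deeper cells and a mean over cells.

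Named genes were the receptors, Klf1 and Adgre1, Csf2rb2, up to 3 rises and 3 falls per pathway list and comparison, and the 3 genes most like each receptor. Elane, Ngp, Ltf, Cd68, Pf4, Hmox1, Cd3e and genes naming a cluster were named after their values were seen. The receptors, lists, markers and tests were chosen with earlier results of these data known. One gene of the kinase, STAT and adaptor list is not reported here and was left out of its counts.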

Additional observations from a re-analysis of the deposited data

How the results depend on the processing

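Of the 10 receptors, 4 were called in EKLF-/- under each of the 6 other fits of all libraries (DESeq2, its size factors, both filters, the replicate block and no globin genes), and 1 to 4 when a library was left out, of which 0 to 3 were higher and 1 was lower. Over all genes, leaving out a library gave 346 to 1730 higher and 575 to 1889 lower calls in EKLF-/-, against 1239 and 1356 with all 6. In the EKLF/GFP comparison 9 or 10 receptors were called lower under every alternative. The exception was Csf2ra under limma on the authors' normalized counts, with log2 fold changes of 1.09 (plus 1) and 0.21 (plus 10), where the table lists it at 0 in 3 libraries. With a pseudocount of 1 that table gave 1750 genes called higher, against 2695 by edgeR, and Csf2rb2 lost its call there with either pseudocount (adjusted p = 0.0821 and 0.0678). Deviations of same-numbered libraries correlated at -0.01 to 0.06 and -0.09 to 0.03, and those of differently numbered libraries at -0.04 to 0.02 and -0.16 to 0.17. These values do not settle whether replicate numbers pair the libraries. With the replicate number as a block, 4 receptors were called in EKLF-/- (864 genes higher and 1037 lower) and 10 in EKLF/GFP+ (2361 and 3422), and the block changed no other call among the receptors. In single cells, 4 receptors were highest in macrophage-like cells among the named classes, and 3 to 4 under the alternatives, leaving out the unnamed clusters. A mean over cells moved Csf2ra, Il6ra and Ifngr1 in Ccr2-high cells to 106, 130 and 163 CPM and Flt3 in Ifitm1-high cells to 54 CPM. Depth limits the receptors at under 3 CPM in EKLF/GFP+ cells.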
